A study of Columba livia with 16 samples.

Results

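The leg bud of the feather-footed Indian fantail was set against the wing bud of the scale-footed racing homer, through the peaks of H3K27ac that the authors listed for each. The members are all peaks of these 2 lists, taken whole: 22407 in Indian fantail hindlimbs and 16474 in racing homer forelimbs, 38881 of the 73059 peaks in the 4 lists of the series. The mirrored pair, racing homer hindlimbs with Indian fantail forelimbs, holds the other 34178 and serves as the yardstick. All buds came from domestic pigeon (*Columba livia*) embryos at Hamburger-Hamilton stage 25, with no treatment. The Indian fantail is a small-muffed breed that carries a deletion upstream of *Pitx1*, and the racing homer is the wild-type, scaled breed. Behind each list are 2 ChIP and 2 input libraries, 8 libraries for the pair and 16 in the series. The number of embryos behind a library is not given in the sources used here. Each list combines its libraries, so the spread between replicates is unknown throughout and no difference between conditions could be tested. The lists give no read counts, so the depth of each library is unknown, and breed and library depth cannot be told apart.

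Wing and leg buds are built with largely the same genes, and a few transcription factors set them apart. *Tbx5* is expressed in the forelimb bud and is needed for its outgrowth, *Pitx1* is expressed in the hindlimb bud and specifies hindlimb features, and *Tbx3*, a neighbour of *Tbx5*, is expressed in both. Acetylation of histone H3 at lysine 27 marks active enhancers and promoters, and an enhancer used in a single limb type can carry it in that limb alone. In chicken embryos, *Tbx5* placed in the leg bud gives partly wing-like legs with feathers on the feet. The comparison asks how far the acetylated regions of a feather-footed leg bud coincide with those of a wild-type wing bud.

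The Indian fantail hindlimb list was the longest of the 4 and the racing homer forelimb list covered the least sequence. The hindlimb peaks covered 48.4 Mb and the forelimb peaks 31.5 Mb, so the first list was 1.54 times the second in covered length and 1.36 times in number of peaks. In the mirrored pair, racing homer hindlimbs covered 38.5 Mb and Indian fantail forelimbs 33.1 Mb, a ratio of 1.16, with 18821 and 15357 peaks. Median peak width was 1644 bp in Indian fantail hindlimbs and 1486 bp in racing homer forelimbs, a difference of 158 bp. The mirrored pair had the opposite order, with 1596 bp in racing homer hindlimbs and 1703 bp in Indian fantail forelimbs. The widest domains were also more numerous in Indian fantail hindlimbs, with 215 peaks of at least 10 kb against 79 in racing homer forelimbs. The mirrored counts were 125 in racing homer hindlimbs and 109 in Indian fantail forelimbs. These are counts in lists of unlike size. The width that 95% of peaks stayed under was 5398 bp in Indian fantail hindlimbs and 4597 bp in racing homer forelimbs. In racing homer hindlimbs it was 4890 bp and in Indian fantail forelimbs 5142 bp, the opposite order to the mirrored counts. The score that the peak caller gave each peak had a median of 136 in Indian fantail hindlimbs and 121 in racing homer forelimbs. Its scale is not stated in the sources used here, so it served to rank peaks within a list, and a score of a peak in one list is not to be read against a score in another.

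**Figure D1:**
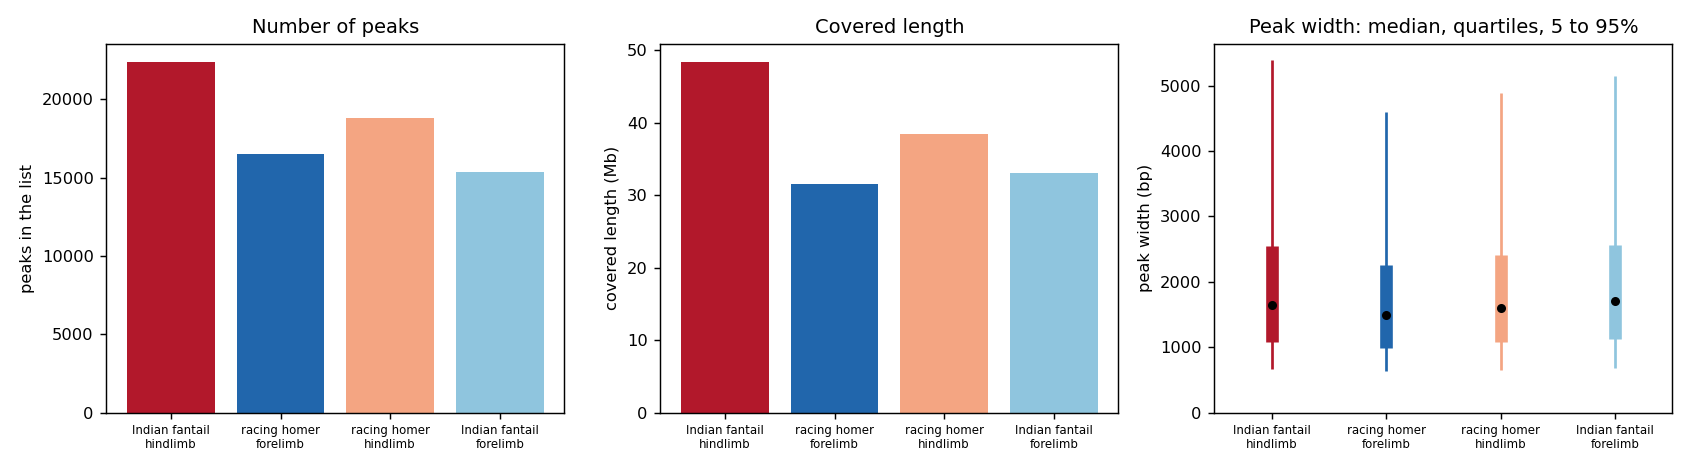
Number of peaks, covered length in Mb and peak width in bp for the 4 lists, the pair studied on the left and the mirrored pair on the right of each panel. In the width panel, dots are medians, thick bars the quartiles and thin lines the range from 5 to 95% of peaks. The Indian fantail hindlimb list stands apart in number and in covered length (48.4 Mb), while all 4 median widths lie between 1486 and 1703 bp.

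Most of the wing bud regions of the racing homer were found in the leg bud list of the Indian fantail, but the reverse share was far lower. At an overlap of at least 1 bp, 13228 of the 22407 Indian fantail hindlimb peaks (59.0%, 95% Wilson interval 58.4 to 59.7%) lay over a racing homer forelimb peak. Of the 16474 racing homer forelimb peaks, 14090 (85.5%, 85.0 to 86.1%) lay over an Indian fantail hindlimb peak. These intervals express counting error alone, and peaks that neighbour each other are not independent. In the mirrored pair the shares were closer together, with 65.9% (65.2 to 66.6%) of racing homer hindlimb peaks and 80.9% (80.3 to 81.5%) of Indian fantail forelimb peaks. In base pairs, Indian fantail hindlimbs and racing homer forelimbs shared 26.6 Mb, which is 49.9% of the 53.3 Mb that either list covered. Racing homer hindlimbs and Indian fantail forelimbs shared 25.3 Mb, or 54.8% of 46.2 Mb. The racing homer leg bud set against the same racing homer wing bud gave 54.9%. As deposited, the feather-footed leg bud thus overlapped the wild-type wing bud in a smaller part of the joint length than the scale-footed leg bud did. As a share of the wing bud list alone, the order was the opposite. The Indian fantail hindlimb list covered 84.5% of the racing homer forelimb length, and the shorter racing homer hindlimb list covered 78.7%. This high share was not particular to the pair. The Indian fantail hindlimb list covered 84.4% of the Indian fantail forelimb length and 85.2% of the racing homer hindlimb length as well. Between the wing buds, the Indian fantail forelimb list covered 77.3% of the racing homer forelimb length.

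Because a longer list can overlap more through its length alone, each list was reduced to its highest-scoring peaks up to the 31.5 Mb of the racing homer forelimb list. This kept 10318 Indian fantail hindlimb peaks, 16474 racing homer forelimb peaks, 13083 racing homer hindlimb peaks and 13990 Indian fantail forelimb peaks. The median width in this selection was 2488 bp in Indian fantail hindlimbs and 1486 bp in racing homer forelimbs, so equal length did not make the lists alike. Both peak shares changed sides: 87.2% (86.6 to 87.8%) of Indian fantail hindlimb peaks lay over a racing homer forelimb peak, and 61.0% (60.3 to 61.7%) of racing homer forelimb peaks over an Indian fantail hindlimb peak. The mirrored shares were 76.4% of racing homer hindlimb peaks and 72.7% of Indian fantail forelimb peaks. In base pairs, the pair shared 52.6% of the joint length and the mirrored pair 55.8%. Base pairs do not count peaks, but whole peaks were ranked for the cut. How a domain is divided into peaks can therefore still decide what was kept.

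At this equal length, the pair was the lowest of all 6 pairs of lists. It set the list that was cut the most, Indian fantail hindlimbs, against the racing homer forelimb list, which kept its weak peaks. The rank is therefore not a plain measure of likeness. Same-limb pairs were the highest, at 62.6% between Indian fantail and racing homer hindlimbs and 60.7% between the forelimbs of the breeds. Both same-breed pairs, hindlimb with forelimb, gave 55.7%. The pair was also the lowest at covered lengths of 10, 15, 20, 25 and 30 Mb, with values from 50.4 to 52.7%. At 2 and 5 Mb it gave 47.9% and 47.8%, and the lowest pair was Indian fantail hindlimbs with Indian fantail forelimbs, at 47.2% and 47.5%. The pair stayed below the mirrored pair at every length, by a margin that was smallest at 2 Mb (47.9% and 48.3%). The 6 pairs share lists, so these values are not independent of one another.

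**Figure D2:**
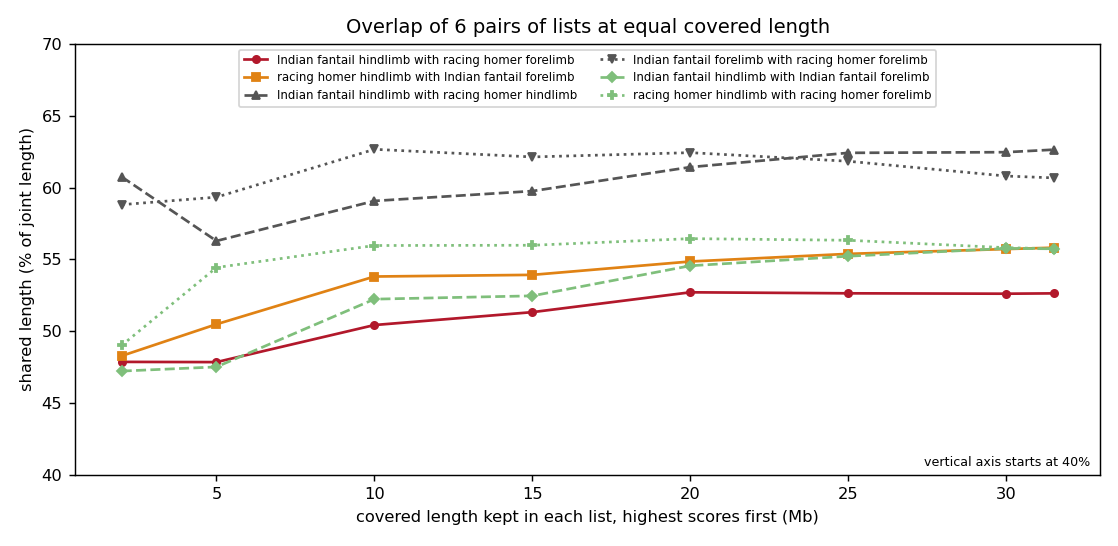
Shared length as a percentage of joint length (vertical axis, starting at 40%) against the covered length kept in each list (horizontal axis, Mb, highest scores first), for all 6 pairs of lists. The line for Indian fantail hindlimbs with racing homer forelimbs ends at 52.6%, under the mirrored and same-breed pairs near 55.7% and the same-limb pairs at 60.7 and 62.6%.

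Peaks with high scores and wide peaks had a counterpart more often than weak and narrow ones. Among the 10% of Indian fantail hindlimb peaks with the highest scores, 99.1% lay over a racing homer forelimb peak, and among the lowest 10%, 21.8% did. The racing homer forelimb list gave 98.8% and 62.9% at these ends. The lowest 10% of the mirrored lists gave 30.0% of racing homer hindlimb peaks and 54.8% of Indian fantail forelimb peaks. As deposited, the weak end of the Indian fantail hindlimb list was the one with the fewest counterparts of the 4. Set against lists of equal covered length, the lowest 10% gave 21.8% of Indian fantail hindlimb peaks and 25.4% of racing homer forelimb peaks, and in the mirrored pair 25.1% of racing homer hindlimb peaks and 34.1% of Indian fantail forelimb peaks. The order of the forelimb lists was thus turned round, while that of the hindlimb lists was kept. Here only the list set against was cut. The racing homer forelimb list set the length and stayed whole, so the Indian fantail hindlimb value of 21.8% could not change. By width, 42.2% of Indian fantail hindlimb peaks under 1 kb lay over a racing homer forelimb peak, against 96.7% of those from 4 to 10 kb and 210 of the 215 that were at least 10 kb wide. In racing homer forelimbs the gap was smaller, with 81.4% under 1 kb and 97.1% from 4 to 10 kb. The rise with width was not steady in the forelimb lists. From 1 to 2 kb the share was 80.6% in racing homer forelimbs. In Indian fantail forelimbs, set against racing homer hindlimbs, it was 78.3% under 1 kb and 72.1% from 1 to 2 kb. Score and width were not separated: median width was 4637 bp in the highest 10% of Indian fantail hindlimb peaks and 1077 bp in the lowest. A wide peak meets an overlap of 1 bp more easily.

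**Figure D3:**
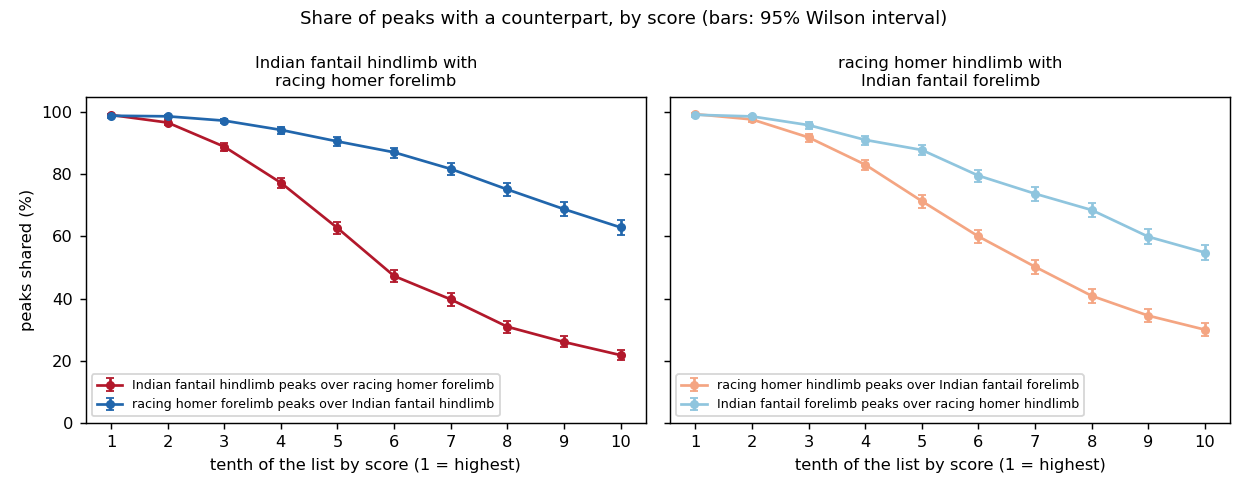
Share of peaks with a counterpart in the other list of the pair, as deposited (vertical axis, %) for successive groups of 10% of the list in order of score (horizontal axis, 1 is the highest), with 95% Wilson intervals as bars. Left, Indian fantail hindlimbs with racing homer forelimbs, where the lowest groups reach 21.8% and 62.9%; right, the mirrored pair, where they reach 30.0% and 54.8%.

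Where a region was present in both buds, it was usually wider in the Indian fantail leg bud. Among 11494 regions with a single peak in each list, the median width was 1945 bp in Indian fantail hindlimbs and 1520 bp in racing homer forelimbs, and the median of the width ratios was 1.19. The hindlimb peak was the wider of the pair in 78.1% of regions and contained the whole forelimb peak in 54.8%. It was at least 2 times as wide in 1064 regions (9.26%), and the forelimb peak was so in 73 (0.635%). In the mirrored pair, 10817 regions with a single peak in each list had a median ratio of 1.03, with the racing homer hindlimb peak wider in 56.4%. There the hindlimb peak was at least 2 times as wide in 290 regions (2.68%) and the forelimb peak in 211 (1.95%). At equal covered length the hindlimb peak was the wider in 82.4% of regions in the pair and 58.3% in the mirrored pair. Peak centres were close in both pairs, with a median distance of 146.5 bp in the pair studied and 128 bp in the mirrored pair. The rank correlation of scores over the matched regions was 0.72 and 0.71 (Spearman's rho, a description over regions that share the same libraries). Some peaks of the Indian fantail leg bud lay over several wing bud peaks. By 1 bp or more, 1111 hindlimb peaks (8.40% of those with a counterpart) overlapped 2 or more racing homer forelimb peaks. In turn, 395 forelimb peaks (2.80%) overlapped 2 or more hindlimb peaks. The mirrored counts were 585 racing homer hindlimb peaks (4.72%) and 567 Indian fantail forelimb peaks (4.56%). At equal covered length the shares were 11.2% in Indian fantail hindlimbs and 1.03% in racing homer forelimbs, and 4.89% in racing homer hindlimbs and 3.24% in Indian fantail forelimbs, so the hindlimb share was the larger in both pairs under both settings.

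The peaks without a counterpart were narrow and weak, and many were found in no other list. The 9179 Indian fantail hindlimb peaks with no racing homer forelimb peak had a median width of 1308 bp and a median score of 81.5, against 2062 bp and 236 for those with one. Of these 9179, 43.1% lay over a racing homer hindlimb peak, 23.3% touched an Indian fantail forelimb peak and 48.2% were in neither list. Of the 6420 racing homer hindlimb peaks with no Indian fantail forelimb peak, 68.2% lay over an Indian fantail hindlimb peak and 26.4% over neither other list. At equal covered length this contrast was turned round. The unmatched peaks then numbered 1319 in Indian fantail hindlimbs, of which 55.5% lay over the hindlimb peaks of the other breed and 29.7% in neither other list, and 3088 in racing homer hindlimbs, of which 36.1% and 39.6% did. The 2384 racing homer forelimb peaks with no Indian fantail hindlimb peak had a median score of 69.0, and 48.9% of them lay in neither other list (42.6% of 6425 at equal covered length). Unmatched peaks were rarely a slight displacement: 14.9% of the unmatched Indian fantail hindlimb peaks had a racing homer forelimb peak within 1 kb, and the median distance was 11.0 kb.

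Most of what the pair shared was common to all 4 limb buds. Of the 26.6 Mb shared by Indian fantail hindlimbs and racing homer forelimbs, 77.0% lay in all 4 lists, 11.0% also in racing homer hindlimbs alone and 6.87% also in Indian fantail forelimbs alone. The rest, 1.36 Mb or 5.11%, was held by the pair and by neither other list. The mirrored pair alone held 0.577 Mb, 2.28% of its shared length. At equal covered length the order was turned round, with 0.719 Mb held by the pair alone and 0.853 Mb by the mirrored pair alone. It was also turned round at equal covered length with the widest peaks kept (0.714 and 0.945 Mb). With lists cut to 15 Mb, the length held by the pair alone was the larger (0.422 and 0.399 Mb). The same held at equal number of peaks (0.959 and 0.744 Mb). The order therefore depended on how the lists were made equal.

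A wing-like leg bud would be looked for in the sequence that the wild type has in its wing bud list and not in its leg bud list. Absence from a list does not show that the sequence lacked acetylation. Racing homer forelimb peaks covered 6.70 Mb outside the racing homer hindlimb list, and 3.19 Mb of it (47.6%) lay in the Indian fantail hindlimb list. The mirrored share, of Indian fantail forelimb sequence outside the Indian fantail hindlimb list that lay in racing homer hindlimbs, was 1.28 of 5.15 Mb (24.9%). With all lists at 31.5 Mb the shares were 25.1% of 8.95 Mb in the pair and 30.6% of 8.96 Mb in the mirrored pair. With all lists cut to 15357 peaks they were 38.6% and 25.3%. The direction of this comparison therefore turned with the way the lists were made equal.

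**Figure D4:**
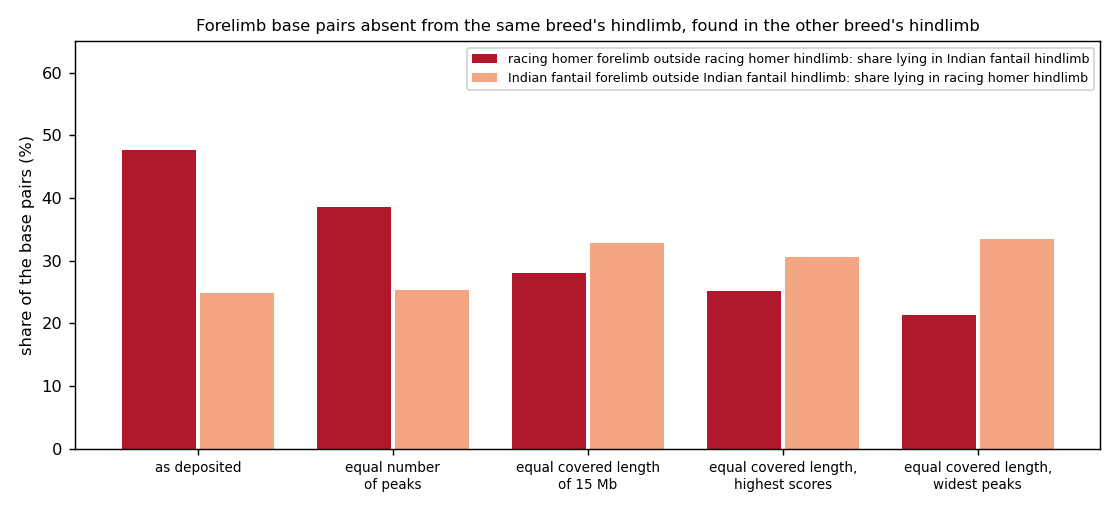
Share of forelimb base pairs outside the same breed's hindlimb list that lay in the other breed's hindlimb list (vertical axis, %), under 5 ways of setting the lists side by side. The bar for Indian fantail hindlimbs is the higher one as deposited (47.6% and 24.9%) and at equal peak number (38.6% and 25.3%), and the lower one under the 3 cuts to equal covered length (25.1% and 30.6% with the highest scores).

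Few of the strongest forelimb peaks lacked a hindlimb peak of the same breed. Of 1845 racing homer forelimb peaks with a score of at least 500, a limit chosen after the values were seen, 14 had no racing homer hindlimb peak, and 10 of these 14 lay over an Indian fantail hindlimb peak. At any score, 3293 racing homer forelimb peaks had no racing homer hindlimb peak. Of these, 1588 (48.2%) lay over an Indian fantail hindlimb peak. Of the 106 kb in the 14 peaks, 35.9% (38.1 kb) was covered in Indian fantail hindlimbs. Much of this length was at a single locus: 4 of the 14 were in the *Tbx5* window described below, with widths from 9407 to 18717 bp and 13.2 kb covered. Among the mirrored peaks, only the one from 677175 to 686575 lay in that window. On the mirrored side, 17 of 1572 Indian fantail forelimb peaks had no Indian fantail hindlimb peak, 13 of them lay over a racing homer hindlimb peak, and 70.5% of their 117 kb was covered. At any score, 526 of 1939 such Indian fantail forelimb peaks (27.1%) lay over a racing homer hindlimb peak. All 31 of the peaks that passed the limit had a counterpart in the forelimb list of the other breed. The 10 were therefore missing from the racing homer hindlimb list alone and the 13 from the Indian fantail hindlimb list alone, and whether the making of a list left such regions out was not tested. The limit of 500 need not stand for the same enrichment in each list. Without a limit, 1507 Indian fantail hindlimb peaks (6.73%, 6.40 to 7.06%) lay over a racing homer forelimb peak and no racing homer hindlimb peak, and 534 racing homer hindlimb peaks (2.84%, 2.61 to 3.08%) lay over an Indian fantail forelimb peak and no Indian fantail hindlimb peak. With the limit of 500 put on the hindlimb peak instead of the forelimb peak, these counts ran the other way. Of the 1507 Indian fantail hindlimb peaks 4 passed it, and of the 534 racing homer hindlimb peaks 14 did. In the whole lists, at least 2241 Indian fantail hindlimb peaks (scores from 655) and at least 1883 racing homer hindlimb peaks (scores from 545) passed it. The highest of the 4 was on scaffold 38 from 15678598 to 15694719, with a score of 1820 and a width of 16122 bp. It spanned 2 racing homer forelimb peaks, from 15678994 to 15686650 with a score of 2244 and from 15688319 to 15694842 with a score of 541. The second was in the *Tbx5* window, and the third was on scaffold 872 from 8849 to 21007, with a score of 1093. The fourth was on scaffold 454 from 1321767 to 1324010, with a score of 564.

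**Figure D5:**
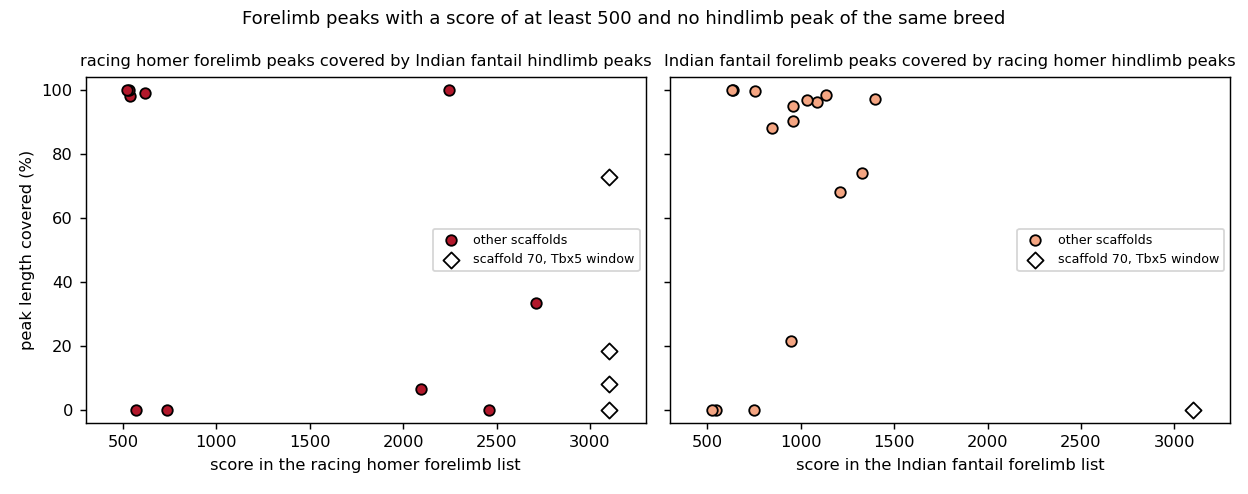
Forelimb peaks with a score of at least 500 and no hindlimb peak of the same breed, by score (horizontal axis) and by the percentage of their length covered by hindlimb peaks of the other breed (vertical axis); diamonds are peaks of the *Tbx5* window. Left, 14 racing homer forelimb peaks and Indian fantail hindlimbs; right, 17 Indian fantail forelimb peaks and racing homer hindlimbs.

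The *Tbx5* window of scaffold 70, from 0.64 to 0.76 Mb, held 4 Indian fantail hindlimb peaks covering 13.2 kb and 10 racing homer forelimb peaks covering 66.0 kb. The mirrored pair had 0 racing homer hindlimb peaks there and 9 Indian fantail forelimb peaks covering 69.1 kb. Both labelled forelimb lists thus had peaks in this window and the racing homer hindlimb list had none. All 4 Indian fantail hindlimb peaks lay inside racing homer forelimb peaks, and 59.0% of the whole list lay over one. With 0 racing homer hindlimb peaks in the window, none of the 4 could lie over such a peak. In the whole list, 6.73% met a forelimb peak but missed the racing homer hindlimb list. The 10 forelimb peaks covered 66.0 kb between 671298 and 746888, so a hindlimb peak there had little room to miss them. The paper had also singled out this locus from the same libraries for its difference between the hindlimbs of the breeds. Neither whole-list share is therefore a fair background for the 4 peaks. Of the 10 racing homer forelimb peaks, 3 lay over an Indian fantail hindlimb peak, against 85.5% of that whole list. The match was therefore complete from the leg bud side and partial from the wing bud side: 20.0% of the forelimb length was covered.

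The racing homer wing bud had 4 peaks that scored 3100 in the *Tbx5* window, and the leg bud list covered unequal parts of them. This score is shared by 90 peaks of the racing homer forelimb list, so it does not rank the 4. The racing homer forelimb peak from 724411 to 736115 was covered over 72.8% of its 11705 bp by the Indian fantail hindlimb peak from 727306 to 735823, which scored 1381. The forelimb peak from 702884 to 721600 was covered over 18.3%, by hindlimb peaks that scored 54.2 and 177. The forelimb peak from 686972 to 702227 was covered over 7.98%, by a hindlimb peak that scored 64.6. The forelimb peak from 677169 to 686575 had no Indian fantail hindlimb peak, and the nearest one lay 7.88 kb away on the right side and 107 kb away on the left. The Indian fantail forelimb list had a peak at nearly the same ends, from 677175 to 686575. At equal covered length, 2 of the 4 hindlimb peaks were kept.

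At the neighbouring *Tbx3* window, up to 0.8 Mb, the pair and the mirrored pair were alike. All 7 Indian fantail hindlimb peaks lay over racing homer forelimb peaks and 8 of the 9 forelimb peaks over hindlimb peaks, with 89.1% of the joint length shared, against 88.5% in the mirrored pair. The forelimb peak without a counterpart, from 766946 to 768627 with a score of 106, was absent from racing homer hindlimbs too and present in Indian fantail forelimbs.

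On scaffold 79, the *Pitx1* window, which runs on from the deletion up to 7 Mb, held 16 Indian fantail hindlimb peaks covering 61.4 kb and 8 racing homer forelimb peaks covering 14.5 kb. All 8 forelimb peaks lay over hindlimb peaks, and 98.5% of the forelimb length was covered, but this was 23.1% of the joint length. The mirrored pair was similar, with 15 racing homer hindlimb and 6 Indian fantail forelimb peaks and 24.7%. The strongest, from 6978330 to 6997097 in Indian fantail hindlimbs, scored 3100 and had no counterpart in either forelimb list. A small peak from 6779385 to 6780606, with a score of 54.1, had a counterpart in racing homer forelimbs and in neither other list. In the deleted interval the Indian fantail hindlimb list had 0 peaks and the racing homer forelimb list 4, of which the highest-scoring, from 6746226 to 6751472, had a score of 456. The racing homer hindlimb list had 9 peaks there, covering 35.3 kb. Sequence missing from the Indian fantail cannot carry a peak, so the lack of Indian fantail counterparts says nothing on acetylation.

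The strongest leg bud peaks without a wing bud counterpart were leg-only in both breeds. The 5 highest-scoring Indian fantail hindlimb peaks with no racing homer forelimb peak all scored 3100. In that list 169 peaks share this score, and ties were ordered by width. Each of the 5 was also present in racing homer hindlimbs and absent from Indian fantail forelimbs. They were on scaffold 580 from 150346 to 183710, on scaffold 79 at the place given above, on scaffold 265 from 1505613 to 1523814 and from 1498960 to 1505500, and on scaffold 922 from 184038 to 191345. Of the 5 highest racing homer forelimb peaks with no Indian fantail hindlimb peak, 2 were wing-only in both breeds. These were the *Tbx5* window peak from 677169 to 686575 and a peak on scaffold 538 from 817710 to 825393 that scored 2461. The other 3 were absent from Indian fantail hindlimbs alone. They scored 1498 on scaffold 693 from 3492085 to 3499116, 1395 on scaffold 34 from 7275486 to 7286012 and 1363 on scaffold 218 from 680791 to 687235. At each of these 3 places both racing homer hindlimbs and Indian fantail forelimbs had a peak. The nearest Indian fantail hindlimb peak lay 0.028 kb from the second of them, and was 1.19 kb from the first and 6.87 kb from the third. Why a list of 22407 peaks lacks them was not tested.

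The widest domains common to the pair belonged to all 4 buds. The widest Indian fantail hindlimb peak with a counterpart, 33608 bp on scaffold 699 from 1135917 to 1169524, lay over 3 racing homer forelimb peaks that together covered 32162 bp. The widest of the mirrored pair was at the same place, with 33736 bp in racing homer hindlimbs over 3 Indian fantail forelimb peaks of 32171 bp. All 5 of the widest in the pair, from 26059 to 33608 bp, had peaks in the other lists too. The regions found in the pair and in neither other list were narrower and weaker: 736 Indian fantail hindlimb peaks (3.28%, 3.06 to 3.53%) on 306 scaffolds, with a median width of 1304 bp, a median score of 76.7 and a highest score of 324. The mirrored count was 221 racing homer hindlimb peaks (1.17%, 1.03 to 1.34%), and at equal covered length the counts were 201 (1.95%) and 365 (2.79%). The highest of the 736 was on scaffold 7 from 9967497 to 9970394 and lay over 1 racing homer forelimb peak. The next, on scaffold 194 from 1205020 to 1208011, scored 300.3 and lay over 2 racing homer forelimb peaks.

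The overlap varied widely between scaffolds, and the pair lay below the mirrored pair on most of them. Over 80 scaffolds with at least 50 peaks in each list, the shared length was from 37.9 to 71.2% of the joint length in the pair (median 49.7%) and from 41.5 to 72.5% in the mirrored pair (median 54.4%). The difference by scaffold, the pair minus the mirrored pair, had a median of -5.34 percentage points as deposited and -3.55 at equal covered length. The pair was the higher of the 2 on 10 of the 80 scaffolds as deposited and on 10 at equal covered length, 4 of them under both. As deposited, the largest margin in its favour was on scaffold 363, with 47.0% and 41.5%, and the largest against it on scaffold 72, with 37.9% and 52.5%. At equal covered length scaffold 363 gave 37.1% and 40.6%, against the pair, and the extremes were scaffold 10, with 51.5% and 44.4%, and scaffold 497, with 52.9% and 64.3%. Scaffold 79 gave 45.6% and 52.5% as deposited, and 52.3% and 54.1% at equal covered length. Scaffold 70, with 35 Indian fantail hindlimb and 38 racing homer forelimb peaks, had too few peaks for this count. As deposited it gave 48.0% in the pair and 39.4% in the mirrored pair, and its value at equal covered length was not computed. This scaffold holds the *Tbx5* window, where the pair shared 13.2 kb and the mirrored pair 0 kb.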

How the data were processed

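H3K27ac ChIP-seq of embryonic limb buds was analysed from the 4 deposited peak lists, which hold a position and a score per peak. The authors made a single list per breed and limb; the submitters' processing notes name CASAVA, Bowtie2 2.2.3, SAMtools, MACS 1.4.2 and MACS2 2.0.10.20130915 without their roles. The genome build, the way replicates were combined and the meaning of the score are not given in the sources used here; starts are printed counting from 1. The deposited score is at least 50 and can be compared only within a list, and a stronger or deeper ChIP can give more and wider peaks. The 2 tables of the authors' own comparison of hindlimbs, which hold log10 likelihood ratios, were not used.

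Peaks were shared at an overlap of 1 bp or more. Lists were made equal by keeping the highest-scoring peaks (ties by width) up to 31.5 Mb of covered length. Shares have 95% Wilson intervals; no test was run, since the lists hold no value per replicate. The genes and the deleted interval are those the study names. Its text gives no bounds for the windows around *Tbx5*, *Tbx3* and *Pitx1*, which were set here. The regions named are the 5 highest-scoring peaks of each list without a counterpart, the 5 widest with one and the 5 highest in the pair alone. The text gives examples of these. The strong forelimb peaks without a hindlimb peak of the same breed were chosen after their values were seen. Members and rules were chosen with earlier results of these data known. Without a genome of this assembly, peaks were not assigned to neighbouring genes and no sequence is shown. Python 3.11.15, numpy 2.4.6, pandas 2.3.3, scipy 1.17.1 and matplotlib 3.10.9 were used, and the overlap procedures were tested on simulated lists, where 14 of 14 checks were recovered.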

Additional observations from a re-analysis of the deposited data

How the results depend on the processing

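No paired analysis was possible because each deposited list combines its replicates, and for the same reason no replicate could be left out. With unknown depth, a missing peak does not show missing acetylation. Shares of peaks moved most. In Indian fantail hindlimbs, the share of peaks with a racing homer forelimb counterpart was 49.2% with an overlap of 50% of both peaks, 60.7% with scores at or above the list median, 71.7% at equal peak number, 61.3% with peaks within 1 kb merged, and 87.2% or 80.3% at equal covered length by score or by width. In the same order without merging, the share of racing homer forelimb peaks was 66.9%, 86.6%, 77.6%, 61.0% and 48.1%. Racing homer hindlimb peaks over Indian fantail forelimb peaks gave 58.4% at 50% overlap, 73.6% at equal number, 66.6% merged, and 76.4% or 74.5% at equal length by score or width. Indian fantail forelimb peaks gave 71.6%, 74.6%, 72.7% and 66.5% in that order without merging. Shared length in the pair was 50.5% with scores at or above the median, 52.7% at equal number, and 52.6% or 47.1% at equal length by score or width; in the mirrored pair the last 3 were 55.6%, 55.8% and 53.9%. The pair stayed below the mirrored pair in shared length under all 6 of these alternatives that give one, scaffolds 79 and 70 left out and merging included. Except at equal covered length, the lists of the pair kept unlike lengths, such as 39.6 and 30.4 Mb at equal number. Unlike lengths limit the share that can be reached, so those settings do not settle the order. The share of racing homer forelimb sequence outside the racing homer hindlimb list that lay in Indian fantail hindlimbs was compared with its mirrored share. The difference, -5.46 percentage points at equal covered length, reversed to 22.7 as deposited and 13.3 at equal number. It was -12.0 with the widest peaks and -4.70 at 15 Mb, and these 4 alternatives were chosen after the data were seen. The cause of these shifts was not tested.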
